A study of Mus musculus with 6 samples.

Results

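The genes described here are the 9 MHC class II presentation genes Cd74, H2-Aa, H2-Ab1, H2-Eb1, H2-DMa, H2-DMb1, H2-Ob, Ciita and Ctss. They were taken by gene symbol, through the accession that each array spot carries, out of 18338 named genes. Of these symbols 8 had a spot, shown by 12 spot sequences in all, and H2-Eb1 had none. RNA from 6 mouse liver samples was hybridised to single-colour Agilent arrays, 1 sample per array. All mice were on the BL6 background and carried the Fah deletion (Fah_del_tm1Mgo), so that they could not complete the degradation of tyrosine and formed toxic intermediates. NTBC acts upstream of the missing enzyme, stops those intermediates from forming and protects the animals while it is given. The FCR mice carried in addition the deletion of Rag2 (Rag2_del_tm1Fwa), without which antigen receptors are not assembled, and that of the common gamma chain Il2rg (tm1Wjl), which several cytokine receptors share. Animals with both of these deletions lack mature T, B and NK cells.

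Each genotype was sampled once under each of 3 NTBC regimens. Continuous NTBC meant 7.5 µg/ml in the drinking water, and these livers were labelled healthy in the Fah mouse and normal in the FCR mouse. The regimen named off and the regimen named 2xoff/on, called cycled below, both used repeated withdrawal and resupply of the drug. The labels do not settle in which phase each of those livers was collected. Both withdrawn Fah samples were labelled tumour (n = 2) and both withdrawn FCR samples inflamed liver (n = 2), so tumour tissue and the presence of lymphocytes changed together between them. One slide held the 4 continuous and off arrays and another the 2 cycled arrays, so each Fah array had an FCR array of its own regimen on its own slide. Nothing in the labels states animal ages or that the samples came from separate animals, so the p-values below measure the spread between these 6 samples. The model of regimen plus genotype takes that spread from how Fah minus FCR varied over the regimens. The model of group means takes it from off against cycled within the tumour and the inflamed group. Regimen and slide therefore enter it as if they were replicate spread.

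MHC class II molecules are pairs of an alpha and a beta chain that show peptides from ingested material to CD4+ T cells. They assemble with the invariant chain, encoded by Cd74, which occupies the peptide groove until proteases such as cathepsin S (Ctss) cut it away in endosomes. H2-DM then exchanges the remaining fragment for peptide, H2-O restrains H2-DM, and Ciita is the co-activator that switches on class II genes. In liver, B cells, dendritic cells and macrophages are the usual carriers, and interferon gamma can induce class II molecules in other cells.

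Ciita does not touch DNA itself. It docks on an assembly of the RFX complex, CREB and NF-Y at the X and Y boxes that lie a short way upstream of class II genes. Of the 9 members, 6 had promoter entries in the RefSeq table of the GRCm38.p6 build, namely H2-Aa, H2-Eb1, H2-DMa, H2-DMb1, H2-Ob and Ctss. The Y box core ATTGG, read on both strands, lay in the 250 bases before the start of 33.8% of all 32851 promoters, and the X box core AGNNAC, read likewise, in 85.6%. A stricter pair, chosen after the sequences were seen, was GNAAC followed on the gene's strand by GATTGG with starts at most 60 bases apart. GNAAC alone was in 79.6% of promoters and GATTGG alone, which contains the Y box core, in 14.6%. The pair was in 419 promoters, or 1.28%, and in those of 4 members, shown here because they are what these genes share outside the array values. The stretches lay at chr17:34287855-34287919 on the minus strand for H2-Aa, and on the plus strand at chr17:34305761-34305824 for H2-Eb1, chr17:34153082-34153146 for H2-DMb1 and chr17:34238803-34238864 for H2-Ob. Each is written 5′ to 3′ along the gene, with both letter groups in capitals.
H2-Aa: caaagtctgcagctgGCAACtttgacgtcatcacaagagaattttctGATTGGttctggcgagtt
H2-Eb1: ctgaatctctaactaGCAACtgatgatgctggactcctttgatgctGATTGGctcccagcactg
H2-DMb1: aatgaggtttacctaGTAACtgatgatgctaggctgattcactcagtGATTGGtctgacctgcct
H2-Ob: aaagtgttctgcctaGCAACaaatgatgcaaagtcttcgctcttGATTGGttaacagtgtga
The starts of the 2 letter groups were 32 bases apart in H2-Aa and H2-DMb1, 31 in H2-Eb1 and 29 in H2-Ob. The GNAAC lay 81 to 94 bases before the gene start. The pair was not in the windows of H2-DMa, for which the table has 2 promoters, or of Ctss. A match of letters is a description of the window and not a measured binding site.

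The levels given are log2 of the processed spot signal minus the 75th percentile of the same array, so that 0 is a spot at that percentile and a difference of 1 is a doubling. Levels of different genes are not set against each other, since probes differ in their response. Values are given in the order continuous, off and cycled. A liver holds many cell types, and in such bulk RNA fewer cells of a type and less RNA per cell cannot be told apart. Each array carried 43379 spots. Between 60.5% and 74.5% of them stood well above background, with no saturated spot. The 75th percentile signal was 363 to 374 on both continuous arrays and the FCR off array, and 722 to 890 on the others. The Fah withdrawal comparison and the off pair thus set brighter arrays against dimmer ones, and the effect on dim genes was not tested. The probe for Il2rg lay at -3.40, -1.94 and -1.98 in the Fah samples and between -7.74 and -6.70 in the FCR samples, while Rag2 lay between -8.71 and -6.71 on all arrays. Fah itself read -2.85 to -0.97, and the files do not say whether its probe lies in the deleted stretch. The 6 measured hepatocyte markers were well above background on every array. The FCR off array stood apart from the other arrays on the second principal component of the tested genes, at 104.3 against -53.0 to 7.96. Values without it are given beside the results whose call was lost, or whose size moved by over 1.5 times, when it was left out. Such values were not set beside the comparison of cycled with off, medians of gene lists, or Tap1 and Tap2. In the model of regimen plus genotype, leaving out either array of a regimen gives the same genotype difference. A move there belongs to the off pair and cannot be laid to the FCR off array alone.

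Of the 8 measured members 7 were at higher levels in Fah than in FCR liver at each of the 3 regimens, Ctss being the exception. The share among all 15382 genes tested was 13.1%. The readings of Fah exceeded those of FCR by more than 1 at every regimen for 5 members (Cd74, H2-Aa, H2-Ab1, H2-DMa and H2-Ob), against 0.670% of all genes. For H2-Ob that rests on FCR readings not well above background, and against the lowest signal well above background on each FCR array Fah was higher by at least 2.18, 1.70 and 0.34, so 4 members exceeded 1 throughout by measured levels. With regimen as a block, the median genotype difference of the 8 members was 1.87, beside a median of -0.11 over all genes. After Benjamini-Hochberg adjustment of limma's p-values over all genes, Cd74 and H2-Ab1 rose past the threshold of 0.05, 2 of 8 members, where 0.130% of all genes were called higher in Fah. At an unadjusted p under 0.05 the count was 7 of 8, against 4.86% of all genes. The members were chosen with results of these arrays known, so these counts describe them and are no test of the list.

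**Figure D1:**
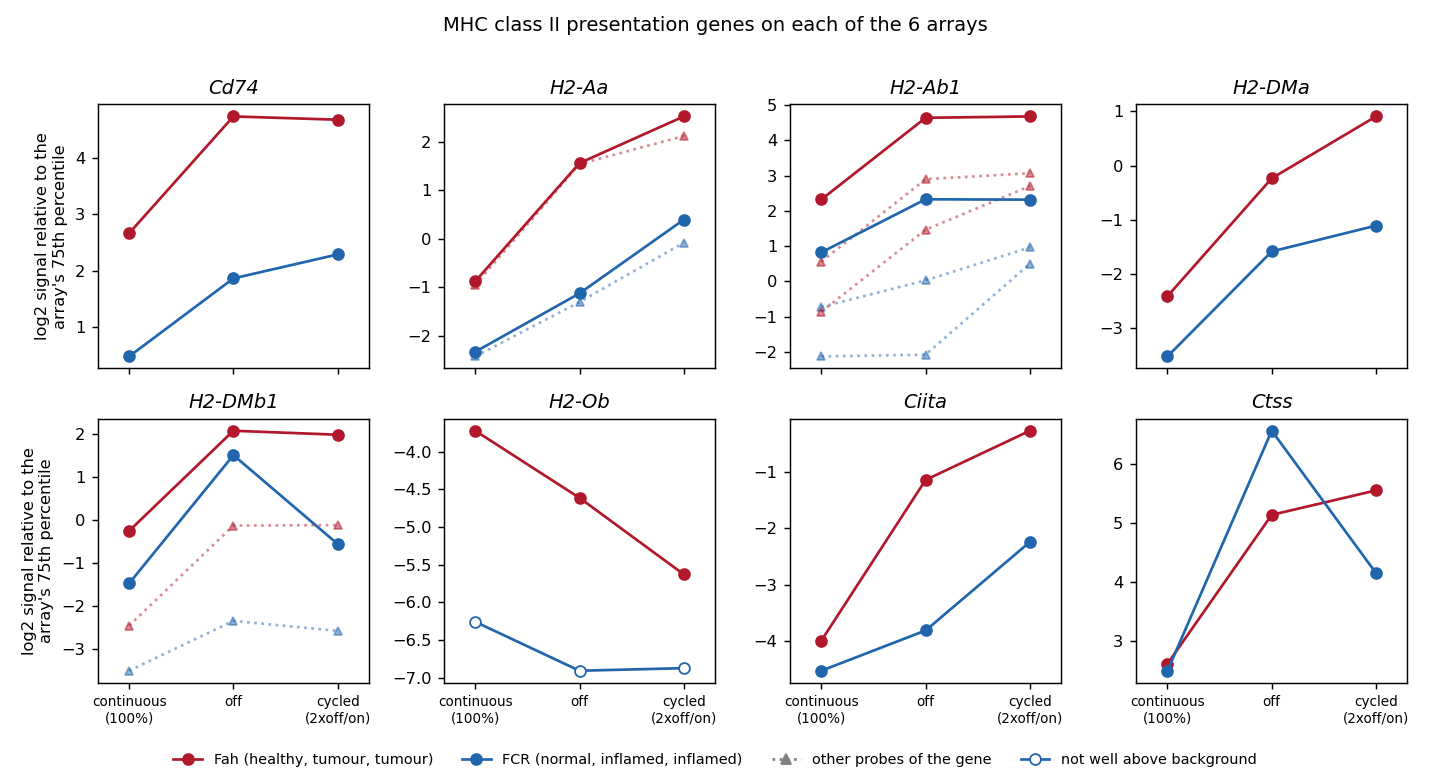
Level of each measured member on each of the 6 arrays, as log2 relative signal, against NTBC regimen, with Fah in red and FCR in blue. Circles with solid lines are the probe tested and triangles with dotted lines the gene's other probes, and open circles are values not well above background. The Fah line lies above the FCR line throughout for every gene but Ctss.

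H2-Aa and H2-Ab1 encode the alpha and the beta chain of the I-A molecule. H2-Ab1 read 2.32, 4.64 and 4.68 in the Fah samples and 0.82, 2.33 and 2.32 in the FCR samples. Every Fah value was above the FCR value of the same regimen, but the Fah sample on continuous NTBC lay level with the withdrawn FCR samples. The genotype difference was 2.06 ± 0.30 (log2, SE, 3 arrays against 3), a 4.16-fold difference, with a limma adjusted p of 0.0476. That call was lost without the Fah off array (adjusted p = 0.558) and without the FCR off array (adjusted p = 0.553), with sizes of 1.93 in both fits, which leave 1 residual degree of freedom. The other 2 probes of H2-Ab1 gave differences of 2.09 and 2.34. Their distance from the tested probe was largest at off, where the 3 probes gave Fah minus FCR values from 2.31 to 3.55.

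H2-Aa read -0.88, 1.56 and 2.52 in the Fah samples. In the FCR samples the same probe read -2.33, -1.12 and 0.39. Each Fah sample was above its FCR counterpart, and only the Fah sample on continuous NTBC reached down into the FCR range. The difference was 2.09 ± 0.33 and missed the threshold (limma adjusted p = 0.0644). Its second probe gave 2.17 ± 0.35 when each probe was tested on its own among 30435 probes. The probes differed by at most 0.16 in their Fah minus FCR value at any regimen.

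Cd74, the invariant chain that escorts class II molecules to endosomes, had the largest genotype difference of the members. It read 2.66, 4.73 and 4.68 in the Fah samples and 0.48, 1.86 and 2.29 in the FCR samples. All 3 Fah values were above all 3 FCR values, which held for 2.33% of all genes and for 1 other member, H2-Ob. Both withdrawn FCR livers lay below the Fah liver kept on NTBC. The Fah minus FCR differences at the 3 regimens were 2.19, 2.87 and 2.39, or 2.48 ± 0.35 (SD, n = 3 pairs). The block fit gave 2.48 ± 0.29 (SE), a 5.59-fold difference with a limma adjusted p of 0.0194, and Cd74 ranked 19th of 15382 genes by p. Without the Fah off or the FCR off array the size was 2.29 and the adjusted p 0.259 and 0.245.

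Ctss, the protease that trims the invariant chain in antigen-presenting cells and is abundant in phagocytes, followed another pattern. It read 2.61, 5.14 and 5.56 in the Fah samples. In the FCR samples it read 2.49, 6.57 and 4.15. Fah minus FCR was 0.12 on continuous NTBC, -1.43 at off and 1.40 when cycled, so that the order of the genotypes turned between the withdrawn regimens. The difference over regimens was 0.03 ± 0.50 (limma adjusted p = 0.984). Without the FCR off array it was 0.76 (adjusted p = 0.947). Leaving out either off array gives this fit the same size, so the size rested on the off pair.

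H2-DMa and H2-DMb1 encode the chains of H2-DM, the peptide exchanger. H2-DMa read -2.41, -0.23 and 0.91 in Fah liver and -3.52, -1.58 and -1.11 in FCR liver. Fah was above FCR at each regimen, with overlap between the Fah liver on continuous NTBC and the withdrawn FCR livers. The difference was 1.49 ± 0.34 (limma adjusted p = 0.193).

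For H2-DMb1 the tested probe read -0.25, 2.09 and 1.99 in Fah liver and -1.47, 1.52 and -0.55 in FCR liver. Its second probe read -2.45, -0.12 and -0.11 in Fah and -3.50, -2.34 and -2.58 in FCR. The 2 probes parted on the FCR off array: there the Fah minus FCR difference was 0.57 by the first and 2.22 by the second, while at the other regimens they differed by 0.17 or less. The tested probe gave 1.45 ± 0.40 (limma adjusted p = 0.273), and 1.88 (adjusted p = 0.753) without the FCR off array. H2-DMb2 is a close copy of H2-DMb1, and whether the probes of one also bind transcripts of the other was not tested.

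H2-Ob encodes the beta chain of H2-O, which restrains H2-DM and is best known from B cells. It read -3.72, -4.61 and -5.63 in the Fah samples, where it was well above background each time. In the FCR samples the probe was never well above background, at -6.26, -6.91 and -6.87, so those readings only bound the level from above. Against the lowest signal well above background on the FCR arrays, the Fah level was at least 2.66-fold higher. The limma difference was 2.03 ± 0.50, with an adjusted p of 0.232. H2-Ob was the only member whose level in Fah liver was highest on continuous NTBC. With normexp background correction its difference was -0.14 (adjusted p = 0.878), so its direction depends on how the background is removed.

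Ciita, the co-activator, was dim but well above background on all 6 arrays. It read -3.99, -1.15 and -0.28 in the Fah samples and -4.53, -3.81 and -2.25 in the FCR samples. The genotypes lay 0.53 apart on continuous NTBC, 2.67 apart at off and 1.97 apart when cycled. The difference was 1.72 ± 0.47 (limma adjusted p = 0.27), and 1.25 without the FCR off array (adjusted p = 0.947). With normexp background correction it was 0.99 (adjusted p = 0.103).

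**Figure D2:**
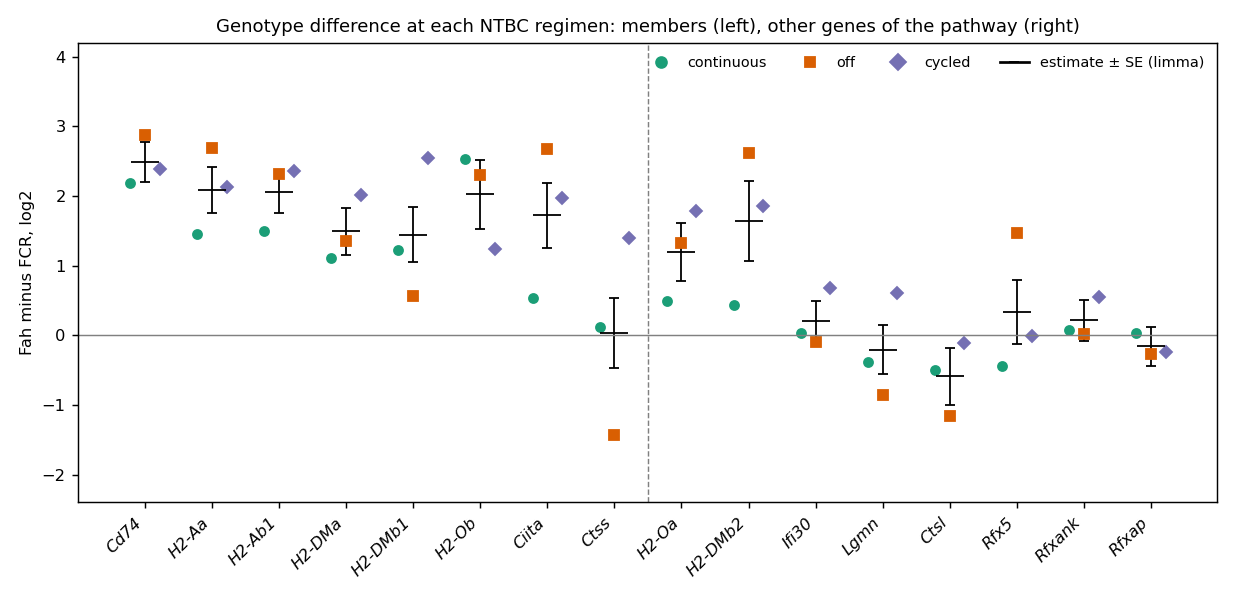
Fah minus FCR in log2 at each NTBC regimen (coloured points) and the limma estimate with its SE over the 3 regimens (black), for the 8 measured members on the left of the dashed line and 8 other genes of the class II pathway on the right. Members other than Ctss have all 3 points above 0, while Ifi30, Lgmn and Ctsl scatter around or below 0.

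Other genes of the pathway were followed as a list of 22, of which 21 had a spot and 20 were tested. None was called in the genotype comparison by limma, 3 were higher and 1 was lower at an unadjusted p under 0.05, and the list's median difference was -0.19. H2-Oa, the partner chain of H2-Ob, differed by 1.20 ± 0.42 and was above FCR at each regimen by 0.50, 1.32 and 1.78 (adjusted p = 0.361). H2-DMb2 was well above background in both tumours only and differed by 1.64 ± 0.57 (limma adjusted p = 0.362). With normexp background correction its difference was 0.01 (adjusted p = 0.99). The promoter-binding proteins were listed as well. Rfx5, Rfxank and Rfxap, the 3 subunits of RFX, had Fah minus FCR values between -0.44 and 1.46 at the 3 regimens, and the NF-Y subunits Nfya and Nfyb differed by 0.94 ± 0.34 and -0.97 ± 0.41 (adjusted p = 0.369 and 0.419), the latter -0.42 without the FCR off array. Among the processing enzymes, the thiol reductase Ifi30 differed by 0.20 ± 0.29 and the endopeptidase Lgmn by -0.21 ± 0.35, both near 0 like Ctss (limma adjusted p = 0.777 and 0.811). Without the FCR off array the differences of Ifi30 and Lgmn were 0.36 and 0.11.

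The class I pathway, which shows peptides from inside the cell to CD8+ T cells, gave a median genotype difference of -0.31 with none of 13 tested genes called. Its largest differences were -0.68 for the immunoproteasome subunit Psmb8 and -0.66 for the class I heavy chain H2-K1. For the interferon gamma list the median was -0.48 with none of 12 called. The interferon-induced chemokine Cxcl9 was lower in Fah at each regimen, by -1.80, -2.31 and -1.42, with a fitted difference of -1.84 ± 0.31 (limma adjusted p = 0.0735). Cxcl10 differed by -1.58 ± 0.31 (adjusted p = 0.135). With normexp background correction both were called lower in Fah by limma, Cxcl9 at -1.68 (adjusted p = 0.000842) and Cxcl10 at -1.43 (adjusted p = 0.00679). Ifng itself was well above background in both tumours and in no FCR sample, with a fitted difference of 1.53 (limma adjusted p = 0.362). With normexp background correction it was -0.11 (adjusted p = 0.908), so its direction depends on how the background is removed. The co-stimulation list had a median of -0.06 with none of 5 called, and its largest difference was -1.31 ± 0.47 for the inhibitory ligand Cd274 (adjusted p = 0.366). Fah minus FCR for Cd274 was -2.74 at off against -0.66 and -0.51 at the other regimens, and its fitted difference was -0.59 without the FCR off array.

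Class II genes lie in one stretch of chromosome 17, and class I processing genes lie among them. Between Brd2 and Notch4 the gene order holds 19 genes, of which 14 had a spot and 11 were tested. The 5 tested members in this stretch had genotype differences from 1.45 to 2.09. Psmb9, Tap1, Psmb8 and Tap2, which sit between H2-DMb1 and H2-Ob, had values of -0.31, 0.37, -0.68 and 0.31. H2-Ab1 was the one gene of the stretch that passed the threshold. Tap1 and Tap2 were above FCR at off by 2.17 and 1.66, but their values at the other regimens were between -0.91 and -0.14.

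**Figure D3:**
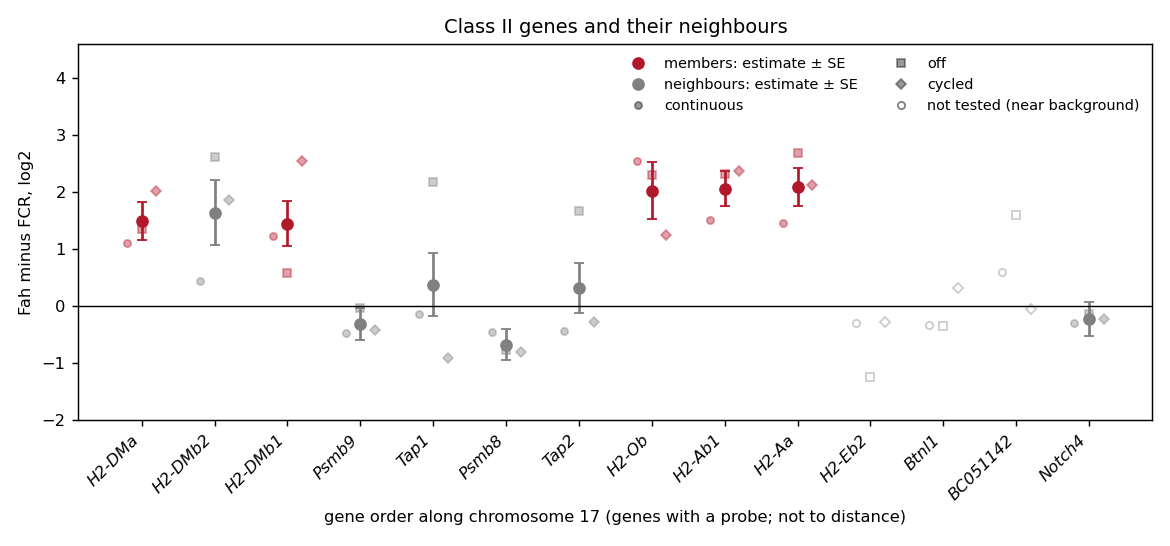
Fah minus FCR in log2 for the genes with a spot between H2-DMa and Notch4, in their order along chromosome 17 and not to distance, with members in red and other genes in grey. Large points with bars are limma estimates with SE, small points the 3 regimens, and open points genes too near background to be tested. The limma estimates of the members lie between 1.45 and 2.09 and those of Psmb9 to Tap2 in their midst between -0.68 and 0.37, while the single regimens overlap, from 0.57 to 2.68 for the members and up to 2.17 for Tap1 at off.

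Marker lists of the cells that usually carry class II, and of T cells and bile duct cells, were read alongside the members. Of 12 B cell markers 9 were tested, with a median difference of 1.63. Ms4a1 (CD20) was at least 7.55-fold higher in Fah, against the lowest signal well above background on the FCR arrays. It passed (limma adjusted p = 0.0194) and read -3.69, -2.38 and -3.38 in Fah liver against -7.83, -7.99 and -7.07, never well above background, in FCR liver. That call was lost without the Fah off or the FCR off array (adjusted p = 0.396 and 0.344, with a size of 3.92 in both), and with normexp (0.84, adjusted p = 0.225). Ms4a1 and Pax5 were well above background in Fah samples only, and Blk in none. The summed level of the B cell list on the log2 scale ran from 0.30 to 2.11 in the Fah samples and from -1.30 to -1.06 in the FCR samples, without overlap. The highest of these sums lay on the Fah off array, where the antibody joining chain Jchain alone read 1.57. The mean of the B cell markers' log2 levels ran from -4.15 to -3.65 in Fah and from -5.57 to -5.375 in FCR. Of 11 T cell markers 10 were tested, with a median of 1.32, and Cd8a passed, with a fitted difference of 3.96 (limma adjusted p = 0.0476). It did not pass without the FCR off array (3.40, adjusted p = 0.611) or with normexp (0.61, adjusted p = 0.494), and was too dim to be tested without the Fah off array. The summed T cell level was 0.31 to 0.74 in Fah and -0.19 to 0.24 in FCR liver. Cd3g, Cd8a and Cd28 were well above background in Fah only, Cd28 on 1 array. Cd3e, Cd4, Lck and Cd5 were well above background on all 6 arrays. Of these, Lck and Cd5 were higher in Fah at each regimen. Fah minus FCR was 0.14, -0.27 and -0.39 for Cd3e, and 0.05, -0.62 and -0.26 for Cd4. For dendritic cells the median of 11 tested markers was 0.81 with none called, and the summed levels overlapped, at 1.29 to 3.29 in Fah and 1.13 to 3.13 in FCR. For macrophages and monocytes the median of 12 tested markers was 0.63 with none called, and the summed levels were 4.11 to 6.57 in Fah and 4.53 to 7.89 in FCR. The highest of these sums lay on the FCR off array, where the scavenger receptor Marco alone read 7.62. The mean of the macrophage markers' log2 levels ran from -1.67 to 1.41 in Fah and from -1.28 to 0.65 in FCR. For the biliary list the median of 5 tested markers was 1.16, with none called, all 5 higher in Fah and 3 of them at an unadjusted p under 0.05. Its summed levels overlapped, at 3.34 to 7.23 in Fah and 3.18 to 5.81 in FCR. The part of these cells in the class II difference was not tested.

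**Figure D4:**
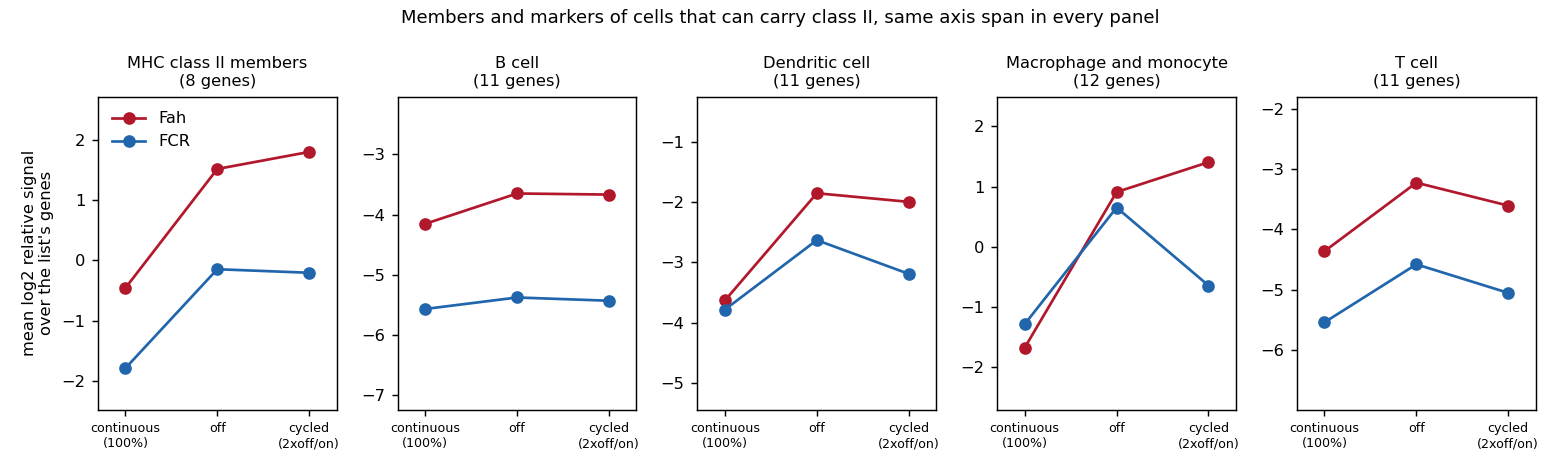
Mean log2 relative signal over the genes of each list on each array, by NTBC regimen, for the members and for markers of B cells, dendritic cells, macrophages with monocytes, and T cells (Fah red, FCR blue, the same span on every axis). The member, B cell and T cell panels keep Fah above FCR at all 3 regimens, whereas the dendritic cell lines start close together and the macrophage lines cross.

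The comparison of both Fah tumours with both inflamed FCR livers asks the same question within withdrawn livers, and shares its arrays with the genotype comparison. None of the 8 members passed, where 0.0715% of all genes were called higher in tumour by limma, 6 of 8 had an unadjusted p under 0.05 and were higher, against 4.19% of all genes, and the median of the members was 2.04 beside -0.13 over all genes. Cd74 differed by 2.63 ± 0.46 (2 arrays against 2, limma adjusted p = 0.0781), H2-Ab1 by 2.34 ± 0.45 (0.099) and H2-Aa by 2.40 ± 0.65 (0.248). For Ciita the difference was 2.32 ± 0.71, for H2-DMa 1.68 ± 0.60 and for H2-DMb1 1.56 ± 0.69 (adjusted p = 0.312, 0.408 and 0.547). Against the lowest signal well above background on the FCR arrays, H2-Ob was at least 2.03-fold higher (adjusted p = 0.529). With normexp its difference was -0.38 (adjusted p = 0.785), so its direction depends on how the background is removed. Ctss differed by -0.01 ± 0.73 (adjusted p = 0.998). Without the FCR off array the sizes were 1.65 for H2-Aa, 1.53 for Ciita, 2.59 for H2-DMb1 and 1.19 for Ctss, with adjusted p from 0.0572 to 0.456. Both tumours were above both inflamed livers for all of these but Ctss, 7 of 8 members against 16.0% of all genes. A fit with slide as a block, which here is the same as regimen, left 1 residual degree of freedom. In it 6 members passed, with limma adjusted p-values of 5.65e-05 for Cd74 and 0.000619 for H2-Ab1, and 1011 genes were called in all. It is the same fit as the genotype comparison without the continuous pair, so the 2 are not separate results. Without the FCR cycled array 4 members passed, and without the FCR off array none did (adjusted p = 0.0501 for Cd74). The B cell list had a median of 1.99 here, and its Jchain, the joining chain of secreted antibodies, was called higher in tumour by 6.27 ± 0.61 (limma adjusted p = 0.0114). The biliary median was 1.65 with none of 5 called.

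In Fah liver, 7 of the 8 members were higher by more than 1 in both withdrawn samples than on continuous NTBC, as 18.0% of all genes were. H2-Ob was the exception, with differences of -0.89 at off and -1.91 when cycled. The model of group means gave H2-Ab1 as the one member called, with a rise of 2.34 ± 0.55 (2 tumours against 1 healthy liver, limma adjusted p = 0.0473), where 3.93% of all genes were called higher. The lone arrays on continuous NTBC were taken to vary like the others. That call was lost without either tumour array, at adjusted p = 0.236 without off and 0.305 without cycled. Ciita differed by 3.28 ± 0.87 (adjusted p = 0.069), H2-Aa by 2.92 ± 0.80 (0.0764), H2-DMa by 2.75 ± 0.73 (0.071) and Ctss by 2.74 ± 0.89 (0.127). The order of these sizes depends on the processing: Ciita was 1.69 with normexp and 2.35 with the authors' values, and Ctss 2.85 and 3.24. Cd74 differed by 2.04 ± 0.57 (0.0796) and H2-DMb1 by 2.29 ± 0.84 (0.179). The median of the members was 2.54, beside -0.08 over all genes. All 7 members other than H2-Ob passed when either FCR withdrawn array was left out of the shared spread, with 2135 and 2373 genes called in all.

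In FCR liver, which has no mature lymphocytes, 7 of 8 members were also higher in both withdrawn samples than on continuous NTBC, against 35.5% of all genes, and 5 of them by more than 1 in both (12.9% of all genes). No member passed, where 1.55% of all genes were called higher by limma, and 6 of 8 had an unadjusted p under 0.05 and were higher, against 9.41% of all genes. Ctss differed by 2.87 ± 0.89 (2 arrays against 1, adjusted p = 0.173), from 4.07 at off to 1.66 when cycled. H2-DMa differed by 2.18 ± 0.73 (0.209), H2-Aa by 1.96 ± 0.80 (0.307), Cd74 by 1.60 ± 0.57 (0.234) and H2-Ab1 by 1.50 ± 0.55 (0.25). H2-DMb1 differed by 1.95 ± 0.84 (0.345), and by 0.92 without the FCR off array. Ciita was higher by 0.71 at off and 2.28 when cycled (1.50 ± 0.87, adjusted p = 0.52), and its difference was 0.53 with normexp. Without the FCR off array, 1 cycled array stood against 1 continuous array on another slide, and H2-Aa differed by 2.72. The median of the members was 1.77, beside 0.04 over all genes.

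**Figure D5:**
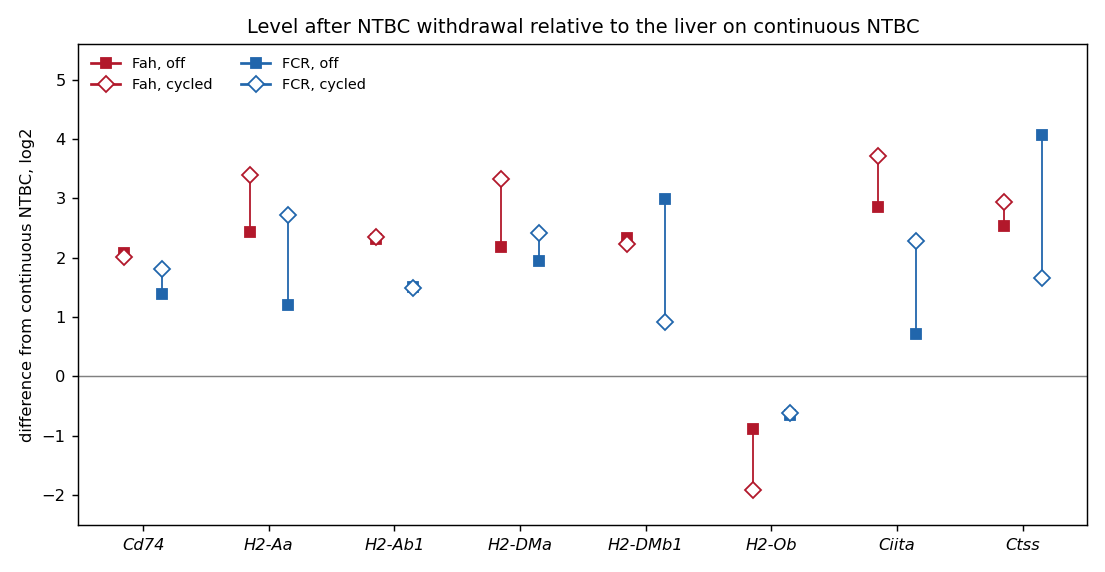
Difference in log2 of each withdrawn liver from the continuous NTBC liver of the same genotype, for the 8 measured members, with off as filled squares and cycled as open diamonds (Fah red, FCR blue). Every point but those of H2-Ob lies above 0. The FCR off and cycled points are 2.42 apart for Ctss and 2.07 apart for H2-DMb1, where the Fah points are 0.42 or less apart.

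Other markers changed with withdrawal alongside the members. In Fah liver the calls included the dendritic cell marker Itgax (4.74 ± 0.81, limma adjusted p = 0.0157) and the macrophage markers Ms4a7 and Ccr2, the latter not with normexp (1.75, adjusted p = 0.0874), and the median of the 12 tested macrophage and monocyte markers was 2.66. Ifi30, the thiol reductase that opens disulfide bonds in antigens, rose by 3.13 ± 0.72 (adjusted p = 0.0432), a call lost without the cycled tumour array (2.44, adjusted p = 0.292). The biliary markers Krt7, Krt19 and Epcam were called higher, Epcam not without the off tumour array (3.38, adjusted p = 0.0825), and the median of the 6 tested hepatocyte markers was -1.41, with none called. The co-stimulation median in Fah liver was 2.62, with Icosl called (3.40, limma adjusted p = 0.0244), but not with normexp (1.73, adjusted p = 0.0971). Cxcl10 of the interferon gamma list was called (2.70, adjusted p = 0.0473), also with normexp (2.52). Both calls were lost when either tumour array was left out. In FCR liver the macrophage median was 1.60 with none of 12 called, the biliary median 1.99 with none of 5 called and the co-stimulation median 2.59 with none of 5 called. The interferon gamma median there was 0.67, with none of 12 called. The hepatocyte median there was -1.01, and Cyp2e1, a drug-metabolising enzyme of hepatocytes, was called lower (-2.80 ± 0.56, limma adjusted p = 0.0467). How far these cell types account for the members' levels was not tested.

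The withdrawal responses of the genotypes did not differ at the adjusted threshold for any gene: limma called 0 of 15382, with 332 (2.16%) at an unadjusted p under 0.05, none of them a member. For Ciita the response was larger in Fah by 1.79 ± 1.23 (limma unadjusted p = 0.181), and by 1.15 with normexp, where H2-Aa gave 1.24. Without the FCR off array H2-DMb1 gave the highest value of the members, 1.37, and Ciita, H2-Aa and Cd74 gave 1.00, 0.19 and 0.23. For Cd74 it was larger by 0.45 ± 0.80, for H2-Ab1 by 0.83 ± 0.78 and for H2-Aa by 0.95 ± 1.13. With standard errors of 0.78 to 1.32 over the members, a difference of 1 in the response was not detectable with these arrays.

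Cycled and off samples were compared with genotype as a block, and slide changed with regimen in that comparison, so the 2 cannot be told apart. No member passed, where 0.793% of all genes were called either way by limma. H2-Aa was higher when cycled in both genotypes, by 0.96 in Fah and 1.52 in FCR (1.24 ± 0.41, adjusted p = 0.193). Cd74 and H2-Ab1 differed by 0.18 ± 0.35 and 0.01 ± 0.37, values whose sign turned when arrays were scaled to their medians. H2-DMb1 differed by -1.08 ± 0.49 (adjusted p = 0.307), with -2.07 in FCR and -0.09 in Fah liver. For Ctss the difference was -2.42 in FCR and 0.42 in Fah liver, of opposite sign (adjusted p = 0.437).

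The series' design text sets both Fah tumours against the normal and the cycled inflamed FCR liver, which leaves out the FCR off array. Limma called 0 of 15175 genes here, with 1750 (11.5%) at an unadjusted p under 0.05. Among them were 7 of 8 members, all higher, against 7.71% of all genes called higher at that unadjusted level. The members' median was 2.84, beside -0.15 over all genes. Cd74 differed by 3.32 ± 0.64, H2-Ab1 by 3.09 ± 0.56 and H2-DMb1 by 3.05 ± 0.47, each with an adjusted p of 0.296. Ctss differed by 2.02 ± 0.62 (adjusted p = 0.349), unlike its value of 0.03 in the genotype comparison. Without the FCR cycled array 2 tumours stood against 1 normal liver, with 1 residual degree of freedom and the spread taken from the tumours alone, and 7 members and 2265 genes passed in that fit.

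The members' patterns over the 6 arrays were compared with those of 12844 genes that were well above background on all arrays, by the root mean square difference after each gene was centred on its own mean. The closest of all genes to Cd74 was H2-Ab1, at 0.269. H2-Aa ranked 10th, H2-DMa 22nd, Ciita 31st and H2-DMb1 168th, while Ctss ranked 3961st at 1.56. Genes outside the set closest to Cd74 were Slc22a3 (0.439), Thy1 (0.472), Rian (0.491), Crybg2 (0.502) and Nkg7 (0.524). For H2-Ab1 they were Pkp3 (0.343), Thy1 (0.345), Pglyrp1 (0.378), Slc22a3 (0.393) and Egflam (0.414). Ctss lay nearest to Gng2 (0.122), Cd52 (0.159), Clec4a2 (0.19), Anxa3 (0.2) and Lair1 (0.227), and its nearest fellow member, H2-DMb1, ranked 544th at 0.805. Cd52, a surface protein of leukocytes, read 0.33, 3.11 and 3.73 in Fah and 0.27, 4.57 and 2.23 in FCR liver, with the same peak on the FCR off array as Ctss. These likenesses rest on 6 arrays and are given without a test.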

How the data were processed

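Per the file headers, the deposited scanner output came from Agilent Feature Extraction 10.7.3.1 (protocol GE1_105_Dec08, probes annotated on mm9), while the submitters' processing notes give 10.5. It holds each spot's processed intensity, from which that software had subtracted background, and the authors deposited it without scaling between arrays. Their deposited series table gives log2 values with array medians of 6.46 to 6.48, by a normalization not given in the sources used here; it served as an alternative. The number of arrays limits the precision.

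Control and outlier spots were removed, repeated spots averaged, and 41145 probes kept. RefSeq accessions of GRCm38.p6 named 26904 of them and gave the gene order; the brightest probe stood for a gene. Two-sided limma 3.58.1 fits (lmFit, eBayes with trend, R 4.3.3) took in genes that stood well above background on 2 or more arrays, with models of regimen plus genotype, of the 4 group means, and of the design text's 4 arrays. P-values were adjusted over all genes by Benjamini-Hochberg. Replicate numbers in the tumour and inflamed groups follow sample order and coincide with regimen. A bound takes, per dim array, the higher of the lowest signal well above background and the probe's own. It is given only where every array of the brighter group stood well above background. Some spots not well above background read higher than that lowest signal, so the bound is no strict limit. Alternatives changed background correction, scaling, filter, probe choice, trend, dim values, block and arrays. Steps were tested on simulated data.

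The members and lists were chosen with earlier results of these data known. Named besides members are list genes that passed or were among the 4 with the largest differences, the closest in pattern, and neighbours. Ifi30, Lgmn, Ctsl, the RFX subunits, Marco, Cd52, Cd3e, Cd4, Lck and Cd5 were named after values were seen.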

Additional observations from a re-analysis of the deposited data

How the results depend on the processing

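Under 18 alternatives the genotype difference of Cd74 stayed between 2.29 and 2.80 and passed in 10, and that of H2-Ab1 stayed between 1.91 and 2.38 and passed in 8. In the Fah withdrawal comparison H2-Ab1 stayed between 1.97 and 2.82 and passed in 5 of 14. Neither gene changed sign in these comparisons. The cause of the moves below was not tested, except that fewer arrays or fewer genes entered where arrays or dim genes were left out.

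Of the genotype comparison's 45 genes and 2 members, normexp background correction gave 349 and 5, quantile normalization 13 and 0, and the mean of a gene's probes 27 and 1. Every probe on its own gave 101 probes and 1 member, eBayes without trend 29 and 0, the authors' values 10 and 0, and values floored at a common level 11 and 0. The array median gave 74 genes, no filter 73 and the requirement of every array 22. Without the regimen block 1 gene and 0 members passed, with adjusted p = 1 for Cd74. Leaving out the continuous pair gave 1011 genes and 6 members, the off pair 0 and 0, and the cycled pair 328 and 4. Leaving out single arrays gave 0 to 352 genes and 0 to 3 members, with 0 when either off array was missing.

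In tumour against inflamed liver the 33 genes and 0 members became 191 and 3 with normexp and 1011 and 6 with slide as a block. The slide fit is the genotype comparison without the continuous pair over again, with 1 residual degree of freedom. Gene counts were 12 with quantile normalization, 85 with the array median, 11 without a filter, 4 with every array required, 4 with the authors' values and 0 with floored values. Leaving out single arrays gave 56 to 811 genes and 0 to 4 members. For Fah withdrawal, 778 genes became 461 with quantile normalization, 432 with every array required, 363 with every probe, 262 with the authors' values and 159 with floored values. Its member count of 1 became 5 with normexp and 0 with the array median, no filter, every array required, the mean probe, every probe, no trend or floored values. Leaving out single arrays gave 501 to 2373 genes and 0 to 7 members.

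For FCR withdrawal, 270 genes became 117 with quantile normalization, 159 without a filter, 138 with every array required, 73 with every probe, 54 with the authors' values and 0 with floored values. Its member count of 0 became 1 with normexp and 1 to 2 without single arrays, where 471 to 1807 genes passed. The difference of the responses went from 0 to 2 genes with normexp and 0 to 16 without single arrays. For cycled against off, 122 genes became 659 with normexp, 56 with quantile normalization, 228 with the array median, 205 without a filter, 184 with every array required, 47 with the mean probe, 1404 with every probe, 78 with the authors' values and 72 with floored values. Leaving out single arrays gave 0 to 624 genes and 0 to 1 members. The design text's comparison went from 0 genes to 2 with normexp, 1 with the array median, and 0 to 2265 genes with 0 to 7 members without single arrays.

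Directions turned where differences were near 0 or a probe was near background. H2-Ob gave -0.14, -0.38 and -0.33 with normexp in the genotype, tumour and design text comparisons. The genotype difference of Ctss was -0.032 with the array median, -0.013 without the continuous pair, -0.66 without the cycled pair, and -0.66 to 0.76 without single arrays. Its tumour difference was 0.081 with normexp, 0.60 with quantile normalization, 0.56 with the authors' values and -1.22 to 1.19 without single arrays. Its difference of responses was 0.39 with quantile normalization, 0.34 with the authors' values and -1.34 to 1.08 without single arrays, and that of H2-DMb1 was -0.70 to 1.37 likewise. In cycled against off, the array median shifted the median of all genes from -0.03 to -0.44. There Cd74 became -0.22, H2-Ab1 -0.39 and the members' median -0.31. Without single arrays that comparison gave -0.11 to 0.48 for Cd74, -0.21 to 0.24 for H2-Ab1, -1.08 to 0.10 for H2-Ob, -2.09 to 0.094 for Ctss and -0.0076 to 0.34 for the members' median.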
